A study of Mus musculus with 16 samples.

Results

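The genes described here are 8 genes of MHC class II antigen presentation, chosen by name as H2-Aa, H2-Ab1, H2-Eb1, H2-DMa, H2-DMb1, Cd74, Ciita and Ctss, out of 55385 genes in a table of short-read RNA-Seq counts. All 8 were found in the table, and each had counts in all 16 libraries. Their levels were compared between fasting and fed mice in 8 tissues, namely spleen, lung, kidney, liver, heart, skeletal muscle and the white and brown adipose depots. The animals were male C57BL/6 mice, acquired at 12 weeks of age and kept on standard chow for at least 10 days. The fed mice had food throughout, and the fasting mice went without food for 24 h before tissue collection in the morning. No transgene or drug is named for either group. Equal amounts of tissue from the 3 mice of a group were combined and RNA was extracted from the mixture, so each tissue and state is 1 library, all 8 tissues come from the same 2 pools of mice, and no replicate shows how far single animals differ.

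MHC class II molecules are pairs of an alpha and a beta chain that hold peptides on the cell surface for CD4+ T cells. They are made mainly by B cells, dendritic cells and macrophages, and by other cells after interferon-gamma. The invariant chain, encoded by Cd74, fills the groove of a new class II molecule and guides it to endosomes, where cathepsin S (Ctss) trims the invariant chain and H2-DM exchanges the remaining fragment for a peptide. CIITA, encoded by Ciita, is the coactivator that switches on the class II chain genes, and it acts through proteins bound to a conserved pair of promoter elements called the X box and the Y box.

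The promoter elements are shown because they are the sites through which CIITA is known to act. RefSeq promoter windows of build GRCm38.p6, running from 250 bases before to 50 bases after a transcript start, were at hand for 5 of the 8 genes, namely H2-Aa, H2-Eb1, H2-DMa, H2-DMb1 and Ctss, and for H2-DMb2, H2-Oa, H2-Ob and H2-Eb2. They were searched on both strands for the Y box letters TGATTGG and for the X box letters GNAAC starting 25 to 50 bases before TGATTGG on the same strand. These letters and spacings were set after these sequences had been seen. The pair of motifs was present in 6 of the 8 H2 genes with a window (H2-Aa, H2-Eb1, H2-DMb1, H2-Oa, H2-Ob and H2-Eb2) and in 0.712% of all 32851 windows. TGATTGG alone was present in 7 of those 8 genes, the seventh being H2-DMb2, and in 7.82% of all windows, and GNAAC alone in 84.8%. H2-DMa, with 2 windows, and Ctss held no TGATTGG. The Ctss window instead held GAAANNGAA, the letters of an interferon response element, which 8.56% of all windows held on either strand. A match of letters is a description and not a bound site. The stretches below read 5′ to 3′ on the strand of the gene, with GNAAC and TGATTGG, or in Ctss GAAANNGAA, in capitals.
H2-Aa, chr17:34287862-34287909, minus strand: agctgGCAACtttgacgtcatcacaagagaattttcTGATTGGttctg
H2-Eb1, chr17:34305771-34305817, plus strand: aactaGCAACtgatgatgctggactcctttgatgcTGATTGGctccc
H2-Eb2, chr17:34325538-34325584, plus strand: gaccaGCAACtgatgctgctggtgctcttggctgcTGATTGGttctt
H2-Ob, chr17:34238813-34238857, plus strand: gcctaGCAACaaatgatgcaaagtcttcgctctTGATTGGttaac
Ctss, chr3:95526755-95526783, plus strand: gtctttaaatGAAACCGAAatgaaagttc

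In these stretches the start of GCAAC lay 31 bases before the start of TGATTGG in H2-Aa, 30 bases in H2-Eb1 and H2-Eb2, and 28 bases in H2-Ob. In H2-DMb1 the X box letters were GTAAC, again 31 bases ahead of TGATTGG.

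Of the 8 genes, 5 lie within one stretch of chromosome 17, and the deposited table gives their places on GRCm38. H2-DMa (ENSMUSG00000037649.10) spans chr17:34119541-34139101, H2-DMb1 (ENSMUSG00000079547.4) chr17:34153072-34160230, H2-Ab1 (ENSMUSG00000073421.6) chr17:34257689-34269419, H2-Aa (ENSMUSG00000036594.15) chr17:34282744-34287823 and H2-Eb1 (ENSMUSG00000060586.11) chr17:34305867-34316674. Ciita (ENSMUSG00000022504.10) spans chr16:10480059-10528418, Ctss (ENSMUSG00000038642.10) spans chr3:95526786-95556403, and Cd74 is ENSMUSG00000024610.15 on chromosome 18. Exons of H2-DMa share 360 bases with Brd2 on the other strand and exons of Ciita share 329 bases with Dexi on the other strand, so their counts depend on how the strand was used in counting, and Cd74 shares 12 bases with Mir5107 on its own strand. H2-DMb1 and H2-DMb2 are close copies of each other, and reads may have been split between them.

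Library totals ran from 14245178 to 36069968 counts, so that 3 counts, taken as the floor, are worth 0.0832 to 0.211 CPM, the counts of a gene scaled to the library total. Intervals given here are 95% intervals of counting error and hold no difference between animals. Each library carried the defining genes of its tissue, but the lung libraries also held the heart genes Nppa (198 CPM fed and 27.4 CPM fasting) and Myh6 (529 and 326 CPM), 2 genes singled out after their values were seen. The brown adipose libraries held the skeletal muscle gene Myh4 at 1272 and 663 CPM.

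Spleen had by far the most class II RNA. The 8 genes summed to 9658 CPM in fed and 8688 CPM in fasting spleen, against 94.8 and 73.0 CPM in muscle, the lowest tissue. Between them lay lung (2041 fed and 1178 fasting), white adipose (1302 and 1299), kidney (394 and 313), brown adipose (308 and 205), heart (286 and 171) and liver (190 and 114). The ranges spanned by the fed and the fasting library overlapped between lung and white adipose, between brown adipose and heart and between heart and liver, so the order of those neighbours is not fixed by these libraries. Spleen over lung, white adipose over kidney and liver over muscle were apart in both states. Kidney over brown adipose was apart only narrowly, with 313 CPM in fasting kidney and 308 CPM in fed brown adipose. For H2-Aa, H2-Eb1, H2-DMa and Ciita the ranges of kidney and brown adipose overlapped, so that order is not fixed either. With no replicate there is no test of these levels.

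The genes kept nearly this order one by one. Cd74 spanned 3828 CPM in fed spleen to 36.1 CPM in fed muscle, a 106-fold range, and Ciita had the widest span among the 8 genes, 592 CPM in fed spleen and 2.70 CPM in fed muscle, a 219-fold range. The other 6 genes spanned 60.6- to 102-fold. Ctss, which macrophages also express, departed from the order in that fed liver (25.5 CPM) stood above fed kidney (18.2 CPM), heart (18.2 CPM) and brown adipose (12.9 CPM). Per kilobase of gene length, Cd74 was 4.61 times H2-Ab1 in fed spleen and between 3.17 and 5.02 times over the 16 libraries. The ratio of the alpha chain H2-Aa to its partner H2-Ab1 per kilobase lay between 0.796 and 1.31 in every library. Per kilobase, Ciita stood at 0.126 of H2-Ab1 in fed and 0.123 in fasting spleen, and at 0.0303 to 0.0734 in the other 14 libraries.

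**Figure D1:**
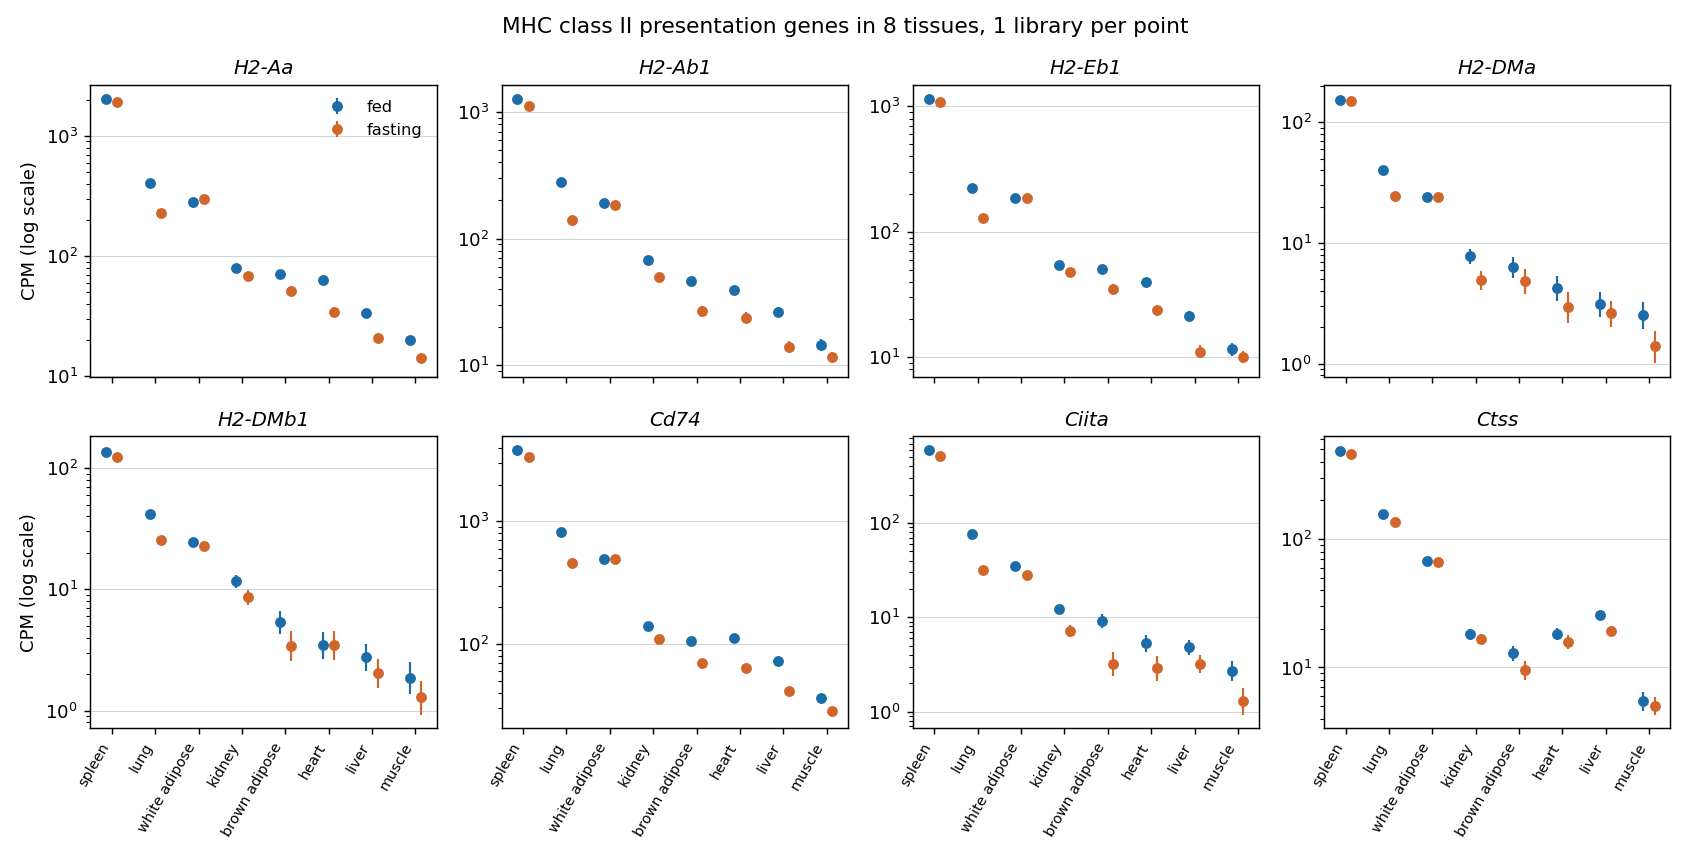
Level of each gene in CPM, on a log axis, in the fed (blue) and the fasting (orange) library of each tissue; bars are 95% intervals of counting error. Spleen is highest for all 8 genes and muscle lowest, and in white adipose the 2 points lie close together for all genes but Ciita, at 35.0 and 28.2 CPM.

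Fasting went with less class II RNA. Of the 64 pairs of a gene and a tissue, 62 had a lower value in the fasting library, and 25 passed both thresholds of the study in the lower direction and 0 in the higher direction. Over all genes, 6.15% of the pairs with a count and 8.67% of the 78765 pairs with at least 10 CPM in a library were called lower, and 57.3% of the latter had a lower value in fasting. These thresholds, a log2 fold change above 0.5 in size with 0.01 CPM added and an unadjusted p under 0.01 in Fisher's exact test (two-sided), compare 2 libraries and not 2 groups of animals. If pools of mice vary with a coefficient of variation of 0.2, which is an assumption, edgeR's exact test left 2 of the 25 calls. The common coefficient of variation in the fit across tissues described next was 0.196. That value comes from tissues of the same 2 pools, so it does not measure the spread between pools. Over all tissues, edgeR's quasi-likelihood test with tissue as a block called 3 of the 8 genes lower at an adjusted p under 0.05, where 2.08% of 17296 genes were called lower and 2.31% higher. Those 3 genes were Ciita, H2-Ab1 and Cd74. Over all 8 genes the median estimate was -0.40 on the log2 scale, beside -0.01 over all genes in that fit, and all 8 estimates were negative. DESeq2 called 7 of the 8 genes lower, where it called 6.09% of the 16234 genes with an adjusted p lower and 11.3% in either direction. EdgeR gave all 8 an unadjusted p under 0.05, as it did 13.1% of all genes in the lower direction and 23.8% in either direction, the shares against which such counts of the lists named later are read. The calls of edgeR were close to the threshold. Without the lung, the heart or the muscle libraries 0 genes were called, with lowest adjusted p of 0.0525, 0.0539 and 0.0530, while 8 of 8 kept an unadjusted p under 0.05. Without spleen or without white adipose 4 were called, and without brown adipose, kidney or liver 1. Because all tissues come from the same pools of mice, this test speaks for the change over tissues and not over animals. In bulk tissue, fewer cells of a type and less RNA per cell cannot be told apart.

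**Figure D2:**
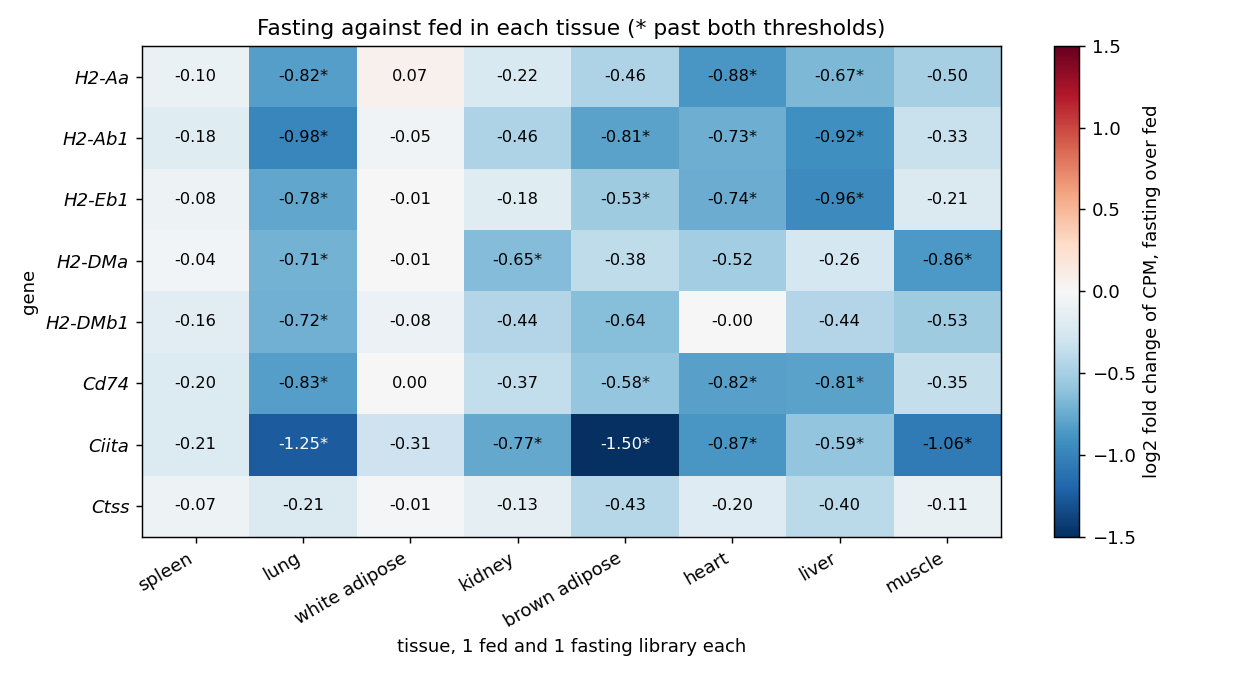
Log2 fold change of CPM, fasting over fed, for each gene (vertical) in each tissue (horizontal), blue for lower in fasting; asterisks mark values past both thresholds. Lung has 7 marked genes, heart and liver 5 each, brown adipose 4, kidney and muscle 2 each, and spleen and white adipose 0.

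Ciita, the class II coactivator, had the largest estimate across tissues among the 8 genes. Its level in fed and fasting libraries was 2.70 and 1.29 CPM in muscle, 4.82 and 3.20 in liver, 35.0 and 28.2 in white adipose, 9.15 and 3.23 in brown adipose, 5.29 and 2.88 in heart, 592 and 513 in spleen, 12.1 and 7.10 in kidney and 75.9 and 32.0 in lung. The fasting library was thus lower in all 8 tissues, and 6 of them, all but white adipose and spleen, passed both thresholds. The call in liver, at -0.59 on the log2 scale, was lost with TMM or size factors, both at -0.46. The log2 fold change was -1.50 in brown adipose (interval -2.01 to -1.02), -1.25 in lung (-1.35 to -1.14) and -1.06 in muscle (-1.67 to -0.47). Muscle, brown adipose and heart rest on few counts, 65 against 40, 152 against 46 and 91 against 44. Across tissues Ciita fell by 0.74 on the log2 scale (SE 0.14, edgeR adjusted p = 0.0216, DESeq2 adjusted p = 9.75e-05). The edgeR adjusted p was 0.0173 to 0.0550 with a tissue left out.

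The class II chains had smaller estimates, close to each other. H2-Aa, the alpha chain of the I-A molecule, was at 20.0 and 14.2 CPM in fed and fasting muscle, 33.4 and 21 in liver, 284 and 298 in white adipose, 71.0 and 51.5 in brown adipose, 62.9 and 34.2 in heart, 2043 and 1900 in spleen, 80.3 and 68.7 in kidney and 403 and 227 in lung. White adipose was the only tissue with more H2-Aa in the fasting library, by 0.07 on the log2 scale, and that sign turned to -0.03 with TMM factors. H2-Ab1, its beta chain, was at 14.5 and 11.5 CPM in muscle, 26.5 and 14 in liver, 190 and 183 in white adipose, 46.6 and 26.6 in brown adipose, 39.4 and 23.7 in heart, 1269 and 1120 in spleen, 68.2 and 49.5 in kidney and 278 and 141 in lung.
H2-Ab1 was lower in fasting in all 8 tissues and past both thresholds in liver, brown adipose, heart and lung, and across tissues it fell by 0.51 on the log2 scale (SE 0.10, edgeR adjusted p = 0.0287). For H2-Aa the estimate was -0.41 (SE 0.10, edgeR adjusted p = 0.0516), with the thresholds passed in liver, heart and lung.

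H2-Eb1 is the beta chain of the I-E molecule, whose alpha chain C57BL/6 mice lack. It followed the I-A chains, with 11.6 and 10.02 CPM in fed and fasting muscle, 21.5 and 11.1 in liver, 50.5 and 34.9 in brown adipose, 39.7 and 23.7 in heart, 54.5 and 48.0 in kidney and 223 and 129 in lung. In white adipose (186 and 185 CPM) and spleen (1148 and 1088 CPM) the libraries were nearly level. The estimate across tissues was -0.39 (SE 0.11, edgeR adjusted p = 0.0625), and liver, brown adipose, heart and lung passed both thresholds.

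Cd74, the invariant chain, was the most abundant of the 8 genes per kilobase in every library. It was at 36.1 and 28.3 CPM in fed and fasting muscle, 72.2 and 41.3 in liver, 491 and 491 in white adipose, 106 and 70.6 in brown adipose, 112 and 63.8 in heart, 3828 and 3331 in spleen, 141 and 109 in kidney and 822 and 462 in lung. The fed library held 1.78 times the fasting level in lung, 1.76 times in heart and 1.75 times in liver. Across tissues Cd74 fell by 0.45 on the log2 scale (SE 0.10, edgeR adjusted p = 0.0356), with 0.0320 to 0.0941 when a tissue was left out.

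H2-DMa and H2-DMb1 encode the chains of H2-DM, the peptide exchange factor. H2-DMa was at 2.53 and 1.39 CPM in fed and fasting muscle, 3.13 and 2.60 in liver, 24 and 23.8 in white adipose, 6.32 and 4.84 in brown adipose, 4.24 and 2.95 in heart, 153 and 149 in spleen, 7.75 and 4.93 in kidney and 40.1 and 24.5 in lung. It passed both thresholds in lung, kidney and muscle. H2-DMb1 was at 1.87 and 1.29 CPM in muscle, 2.78 and 2.04 in liver, 24.3 and 23.0 in white adipose, 5.36 and 3.44 in brown adipose, 3.49 and 3.47 in heart, 137 and 122 in spleen, 11.7 and 8.57 in kidney and 42.2 and 25.6 in lung.
Lung was the only tissue in which H2-DMb1 passed both thresholds, and in heart its log2 fold change was 0.00 with an interval of -0.57 to 0.55. With 40 to 105 counts a library in muscle, liver, brown adipose and heart, neither gene passed both thresholds in those tissues except H2-DMa in muscle. Across tissues the estimates were -0.37 for H2-DMa (SE 0.10, edgeR adjusted p = 0.0619) and -0.34 for H2-DMb1 (SE 0.09, edgeR adjusted p = 0.0603).

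Ctss, the protease of the invariant chain, had the smallest estimate. It was at 5.44 and 5.04 CPM in fed and fasting muscle, 25.5 and 19.3 in liver, 67.0 and 66.4 in white adipose, 12.9 and 9.55 in brown adipose, 18.2 and 15.9 in heart, 488 and 463 in spleen, 18.2 and 16.6 in kidney and 158 and 136 in lung. No tissue passed the fold threshold, and the estimate across tissues was -0.15 (SE 0.06, edgeR adjusted p = 0.154). Per kilobase, the ratio of Ctss to Cd74 was 0.237 in fed and 0.364 in fasting lung, 0.2 and 0.307 in heart and 0.436 and 0.578 in liver, against 0.169 and 0.167 in white adipose.

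Lung had the largest change of the group, with a median log2 fold change of -0.80 over the 8 genes and 7 of 8 called lower, where 6.49% of genes with a count and 6.76% of genes with at least 10 CPM were called lower. Immune cell genes moved with it. All 10 B cell markers were called lower in fasting lung (summed level 499 CPM fed and 252 CPM fasting), among them Ighm, the heavy chain of IgM, at 186 and 98.6 CPM. Of 10 T cell markers 9 were called lower (141 and 53.6 CPM), with the CD4 coreceptor Cd4 at 18.0 and 4.49 CPM, while Il7r, a cytokine receptor of T cells, stood at 17.1 and 19.8 CPM. Of the 5 shared leukocyte genes 4 were called lower (753 and 428 CPM), with the pan-leukocyte phosphatase Ptprc at 373 and 194 CPM. Of 10 dendritic cell markers 4 were called lower and 0 higher (190 and 159 CPM, median log2 fold change -0.32). The macrophage markers were nearly level, with a summed 4608 CPM fed and 4264 CPM fasting, 0 of 10 called lower and 1 called higher. Of all 11266 genes with at least 10 CPM in lung, 415 were called higher. Heart RNA in lung, given by Nppa and Myh6 above, also differed between the 2 libraries. The part of these differences in the class II result was not tested.

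Heart, liver and brown adipose came next. The median log2 fold change was -0.74 in heart with 5 genes called lower (background 5.8% of genes with a count and 9.57% at 10 CPM), -0.63 in liver with 5 (9.52% and 15.4%) and -0.56 in brown adipose with 4 (7.58% and 12%). H2-Ab1, H2-Eb1, Cd74 and Ciita passed both thresholds in all these 3 tissues on library totals, Ciita in liver not with TMM or size factors. The 5 shared leukocyte genes summed to 62.6 and 52.4 CPM in fed and fasting heart (0 called lower), 52.4 and 42.5 CPM in liver (1 called) and 64.1 and 42.5 CPM in brown adipose (3 called). Macrophage markers summed to 413 and 354 CPM in heart, 334 and 298 CPM in liver and 244 and 234 CPM in brown adipose, and B cell markers to 37.1 and 23.7 CPM, 29.6 and 26.5 CPM and 22.8 and 12.6 CPM. The part of these genes, or of Myh4 in brown adipose, in the class II result was not tested. In heart, liver and brown adipose the fed library held 1.67, 1.66 and 1.50 times the fasting level of the summed class II genes, 1.20, 1.23 and 1.51 times that of the shared leukocyte genes, 1.56, 1.11 and 1.82 times that of the B cell markers, 1.17, 1.12 and 1.04 times that of the macrophage markers and 1.16, 1.04 and 1.1 times that of the dendritic cell markers. In brown adipose all 10 dendritic cell markers were lower, 2 of them called, with a median log2 fold change of -0.60. Of all genes with at least 10 CPM in brown adipose, 4771 of 9562 were lower.

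Kidney and muscle had 2 genes each past both thresholds, in both cases Ciita and H2-DMa, with a background of 3.93% and 4.81% in kidney and 9.39% and 13.6% in muscle. Their median log2 fold changes were -0.41 and -0.43. Of all genes with at least 10 CPM, 6188 of 10239 in kidney and 4727 of 7768 in muscle had a lower value in fasting. In kidney 387 of those 10239 genes were called higher. The counts of lower markers below are read beside these shares. In muscle the fed library held 1.30 times the fasting level of the summed class II genes, 1.23 times that of the shared leukocyte genes (5 of 5 lower) and 1.14 times that of the macrophage markers. For the dendritic cell markers it held 0.993 times the fasting level, with 7 of 10 lower and 0 called. The T cell markers in muscle summed to 0.540 and 0.420 CPM. The B cell markers in muscle summed to 49.2 and 37.9 CPM, nearly all of it Ighm at 47.7 and 37.8 CPM. The other 9 had 0 to 7 counts a library, all 10 were lower with a median of -3.48 on the log2 scale, and 0 were called. In kidney the ratios were 1.26 for class II, 1.005 for B cell markers, 1.14 for shared leukocyte genes (5 of 5 lower) and 1.04 for macrophage markers. Of the 10 B cell markers in kidney 6 were lower and 1 was called lower, with a median of -0.24. The dendritic cell markers had a ratio of 1.07, with 5 of 10 lower, 2 called lower and 0 higher. For the T cell markers the ratio was 0.893, with 4 of 10 lower, 0 called lower and 1 called higher. The part of these genes in the class II values was not tested.

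Spleen and white adipose had 0 genes called, with a background of 1.62% and 1.25% in spleen and 5.84% and 9.26% in white adipose. In spleen all 8 genes were lower by 0.04 to 0.21 on the log2 scale, a small difference in libraries deep enough that the intervals of 7 genes excluded 0, H2-DMa at -0.11 to 0.03 being the other. In white adipose the median was -0.01, and on library totals Ciita was the only gene with a difference beyond 0.1, at -0.31 (interval -0.46 to -0.17). With TMM factors all 8 genes were lower in white adipose, from -0.03 for H2-Aa to -0.41 for Ciita, with H2-Ab1 at -0.15 and H2-DMb1 at -0.18. Among the marker lists in white adipose, the B cell markers summed to 352 and 87.5 CPM, of which Ighm gave 338 and 76.3 CPM, and Ptprc was at 96.3 and 72.1 CPM. The dendritic cell markers summed to 131 and 142 CPM, with 3 of 10 called lower and 0 higher, and the T cell markers to 11.7 and 12.5 CPM. The difference between white adipose and the other tissues was not tested, since each tissue has 1 library per state.

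**Figure D3:**
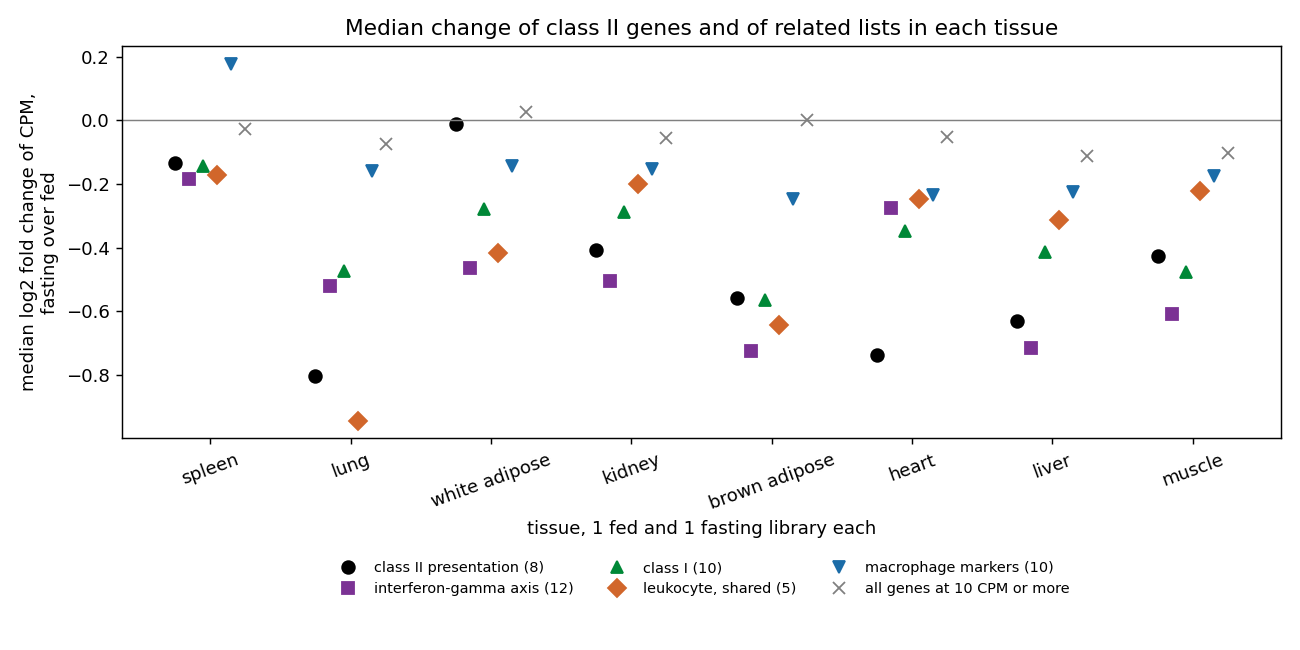
Median log2 fold change of CPM, fasting over fed, of the 8 class II presentation genes (black) and of related lists in each tissue, over the genes of a list with a count. The medians of class II and of the interferon-gamma axis are negative in every tissue. In white adipose the class II median is -0.01 beside -0.46 for the interferon-gamma axis, and in heart it is -0.74 beside -0.28.

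The other class II genes were largely genes of spleen and lung. H2-Ob and H2-Oa encode H2-DO, which holds back H2-DM in B cells. H2-Ob was at 598 and 519 CPM in fed and fasting spleen and 52.1 and 23.9 CPM in lung, and at no more than 4.38 CPM in any other library. H2-Oa was at 97.5 and 94.7 CPM in spleen and 7.15 and 3.44 CPM in lung. H2-DMb2, the second DM beta gene, was at 335 and 301 CPM in spleen and 28.3 and 13.3 CPM in lung, and H2-Eb2, a further beta chain gene, at 90.5 and 68.3 CPM and 6.42 and 2.47 CPM. All 4 were called lower in lung, by 1.05 to 1.38 on the log2 scale. H2-Ob was also called lower in brown adipose (38 and 14 counts) and kidney (65 and 44 counts).
In white adipose these 4 genes had higher values in the fasting library, with H2-DMb2 at 5.88 and 7.66 CPM, and none was called. H2-Ea had 2 counts in all, both in fasting spleen, and 0 in the other 15 libraries. Across tissues edgeR called 0 of the 3 genes it tested, 1 of them (H2-Ob, log2 fold change -0.51, adjusted p = 0.0934) with an unadjusted p under 0.05, and DESeq2 called H2-Ob. Per kilobase, H2-Ob stood at 0.225 of H2-Ab1 in fed spleen, 0.0893 in fed lung and 0.00907 in fed white adipose.

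The list of class II transcription held 10 genes: Rfx5, Rfxap, Rfxank, Nfya, Nfyb, Nfyc, Creb1, Irf4, Irf8 and Spi1. EdgeR called 0 of them, and the median log2 fold change was -0.02. The 2 with an unadjusted p under 0.05 in edgeR were Irf8 and Spi1, and none of the RFX or NF-Y genes or Creb1 had one. DESeq2 called 1, Irf8, a factor of dendritic cells, macrophages and B cells (edgeR log2 fold change -0.33, adjusted p = 0.0610). Irf8 was at 55.4 and 33.1 CPM in fed and fasting lung and 430 and 416 CPM in spleen. Creb1, which binds the X box region, had an estimate of 0.05 (adjusted p = 0.670).

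Among 11 genes of endosomal processing, edgeR called 0 lower and 1 higher, and the median was 0.02. Ctsl, cathepsin L, which trims the invariant chain in thymic epithelium, rose by 0.66 on the log2 scale (SE 0.14, adjusted p = 0.0301), with 416 and 811 CPM in fed and fasting liver, 146 and 314 CPM in heart and 71.4 and 152 CPM in muscle. It was higher in the fasting library in all 8 tissues, opposite to Ctss. Cathepsin B (Ctsb, -0.12, adjusted p = 0.464) and cathepsin D (Ctsd, 0.09, adjusted p = 0.595) did not pass the test.

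Interferon-gamma is the cytokine that induces Ciita, and the list of its axis holds Ifng, receptor chains and kinases as well as genes that respond to it. EdgeR called 7 of the 11 tested genes of this list lower, with a list median of -0.48. Among them, the transcription factor Irf1 fell by 0.48 (adjusted p = 0.00734), the feedback inhibitor Socs1 by 1.09 (0.0439), and the GTPases Gbp2, Igtp, Iigp1 and Irgm1 by 0.66, 0.92, 0.88 and 0.33 (0.0287, 0.00534, 0.0247 and 0.0246). The receptor chain Ifngr1 (0.35, adjusted p = 0.102) and the kinase Jak1 (0.11, adjusted p = 0.512) had positive estimates in edgeR, and DESeq2 called Ifngr1 higher (adjusted p = 0.0486) and 7 genes lower. Ifng itself was at or below 0.795 CPM in every library and was left out by the filter.
In white adipose, where class II was nearly level on library totals, 5 of the 12 listed genes were called lower and 0 higher (background lower 5.84% of genes with a count and 9.26% at 10 CPM). Gbp2 was at 91.2 and 40.1 CPM in fed and fasting white adipose and Iigp1 at 74.7 and 24.8 CPM. In heart, where class II was lower, 5 of the 12 listed genes were called lower and 1, Jak1, higher. The background in heart was 5.8% of genes with a count and 9.57% at 10 CPM called lower, and 693 of 9422 genes at 10 CPM called higher. Igtp was at 21.7 and 10.9 CPM there, while Gbp2 stood at 23.8 and 24.2 CPM and Iigp1 at 107 and 117 CPM. In liver, brown adipose, kidney, muscle, spleen and lung the median log2 fold changes of class II and of this list were all negative. For class II they were -0.63, -0.56, -0.41, -0.43, -0.13 and -0.80 in that order. For the interferon-gamma list they were -0.71, -0.72, -0.50, -0.61, -0.18 and -0.52. Whether the lists differ within a tissue was not tested.

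**Figure D4:**
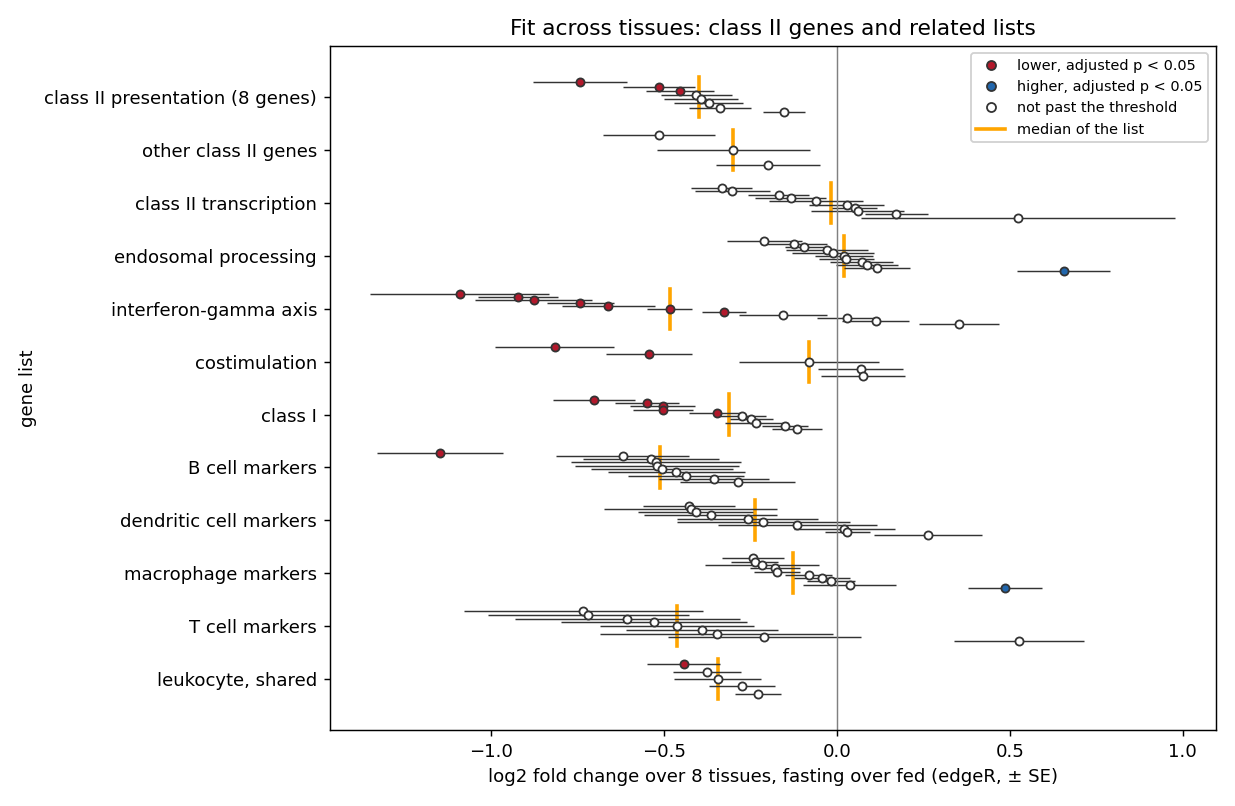
Log2 fold change over 8 tissues, fasting over fed, for each gene of each list, with its standard error (edgeR); filled red or blue points passed an adjusted p of 0.05 as lower or higher, and orange lines are list medians. All 8 class II presentation genes lie left of 0 and 3 are filled, beside 7 filled genes of the interferon-gamma axis and 5 of class I.

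Class I genes, whose coactivator is Nlrc5, a relative of Ciita, were also lower. All 10 estimates were negative, with a median of -0.31, and 5 were called: Nlrc5 fell by 0.70 (adjusted p = 0.0156), the immunoproteasome subunits Psmb9 by 0.55 (0.0154) and Psmb8 by 0.50 (0.0173), the peptide transporter Tap1 by 0.50 (0.0216) and the light chain B2m by 0.35 (0.0399). The heavy chain gene H2-D1 had an estimate of -0.12 (adjusted p = 0.364). Of 5 costimulatory genes tested, Cd274, which encodes the inhibitory ligand PD-L1, fell by 0.82 (adjusted p = 0.0319) and Cd40 by 0.54 (0.0397), and Icosl had an estimate of 0.08 (0.741).

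Markers of cells that carry class II gave the following values across tissues in edgeR. All 10 B cell markers had negative estimates, with a median of -0.51, and 1 was called, Fcer2a, the low-affinity IgE receptor of mature B cells, which fell by 1.15 (adjusted p = 0.0141), while Cr2 (-0.54) and Ighm (-0.52) were not called. Of the B cell markers 7 had an unadjusted p under 0.05, and DESeq2 called 1. Of 10 dendritic cell markers 0 were called by edgeR or by DESeq2, 2 had an unadjusted p under 0.05, and the median was -0.24, with Itgax at -0.43 (adjusted p = 0.0881) and Zbtb46 at 0.03. Of 10 macrophage markers edgeR called 0 lower, and 5 had an unadjusted p under 0.05, among them Mertk with a positive estimate. DESeq2 called 2 lower, the surface marker Adgre1 (adjusted p = 0.0252) and the lysozyme gene Lyz2 (0.00104). EdgeR called 1 higher, the engulfment receptor Mertk, which rose by 0.49 (adjusted p = 0.0373), and the median was -0.13, with estimates of -0.17 for Lyz2 and -0.04 for Csf1r. The 5 shared leukocyte genes had a median of -0.34, and Coro1a was called, at -0.44 (adjusted p = 0.0440), while Ptprc was at -0.38 (adjusted p = 0.0586). All 5 had an unadjusted p under 0.05, and DESeq2 called 3.
The T cell list had 0 of 9 tested genes called by edgeR or by DESeq2 and a median of -0.46. Of its genes 2 had an unadjusted p under 0.05, in opposite directions, Cd3d at -0.72 and Il7r at 0.53. Of 6 endothelial markers 0 were called by either tool and 3 had an unadjusted p under 0.05, Pecam1 as higher and Kdr and Emcn as lower. Their list median was -0.06, with estimates of 0.20 for Pecam1 and -0.05 for Cdh5. The part of cell numbers in the class II values was not tested.

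Over the 16 libraries, log2(CPM + 1) of the 8 genes correlated closely, with Pearson's r of 0.933 for the least alike pair and a median of 0.988, a description driven by the differences between tissues. Among 14899 other genes with at least 10 CPM in 1 library, the 6 most like the mean of H2-Aa, H2-Ab1, H2-Eb1 and Cd74 were Zfp26 (0.988), Fam172a (0.988), Pot1b (0.987), Rad9a (0.986), Ankrd13d (0.985) and Suv39h1 (0.985). All 6 were higher in fed spleen than in fed muscle, Zfp26 with 144 and 27.3 CPM and Ankrd13d with 17.8 and 0.623 CPM. In lung all 6 had a lower value in the fasting library, as had 7268 of the 11266 genes with at least 10 CPM there. The values ran from Suv39h1 at 18.3 and 18.2 CPM and Zfp26 at 82.7 and 80.5 CPM to Fam172a at 55.1 and 48.7 CPM, Pot1b at 26.7 and 22.3 CPM and Ankrd13d at 8.25 and 6.04 CPM.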

How the data were processed

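The authors mapped strand-specific paired-end reads, trimmed with fastp 0.23.2, by HISAT2 2.2.1.0 against GRCm38 and deposited raw counts per gene from featureCounts (Subread 2.0; GENCODE vM24), with gene length (other) as deposited. Counts on mitochondrial genes were 0. Gene names came from GENCODE vM21 by identifier. The genes and lists were chosen with earlier results of these data known. CPM used library totals (14245178 to 36069968). Within a tissue, Fisher's exact test (scipy 1.17.1) compared both libraries by the study's thresholds. Across tissues, edgeR 4.0.16 fitted all 16 libraries (TMM, low-count filter, tissue block, 7 residual degrees of freedom, Benjamini-Hochberg adjustment over 17296 genes); the SE is the fold change over the root of the test statistic. Alternatives included DESeq2 1.42.0. Both tests were tested on simulated data. All class II genes were named; of other lists, the 2 most abundant, those called in the fit across tissues (1 result is not reported here) and a few marked as chosen later. Interval limits and the floor of 3 counts cover counting error only.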

Additional observations from a re-analysis of the deposited data

Results flagged for a closer look

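Of the class II genes, their transcription factors and the processing genes, 3 had values past both thresholds in opposite directions in different tissues, and none of these differences between tissues was tested. Irf4, a factor of B cells, dendritic cells and fat cells, was higher by 3.84 on the log2 scale in fasting white adipose (23.3 and 335 CPM) and by 0.94 in brown adipose, and had a value of -0.87 in lung (20.1 and 11 CPM). Rfxank, a subunit of the RFX complex on the X box, had 0.66 in heart (20.6 and 32.5 CPM), -0.63 in brown adipose (32.7 and 21.1 CPM) and -0.54 in liver (25.7 and 17.6 CPM). Nfyb, a subunit of NF-Y on the Y box, had 0.51 in brown adipose (16.7 and 23.7 CPM), -1.04 in liver (42.1 and 20.5 CPM) and -0.51 in muscle (27.1 and 19.0 CPM). The Nfyb values in brown adipose and muscle lay so close to the threshold of 0.5 that a small shift in scaling could end either call. The same holds for Rfxank in liver, where TMM factors moved the median of all genes from -0.128 to -0.002. In white adipose, where Irf4 was over 10 times its fed level, H2-Aa was at 284 and 298 CPM and Ciita at 35.0 and 28.2 CPM. Bulk tissue does not show which cells held the Irf4 RNA, and any link between Irf4 and these class II values was not tested.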

How the results depend on the processing

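All 8 genes kept a negative estimate across tissues under each alternative, left-out tissues included. The count called was 7 of 8 with DESeq2, 4 with total counts alone, 3 without the filter and with robust dispersion, and 0 to 4 with a tissue left out. It was 0 without both adipose tissues (7 with an unadjusted p under 0.05) and 0 without a tissue block (0 with an unadjusted p under 0.05), where differences between tissues enter the error. The exact sign-flip permutation test over 8 tissues gave an unadjusted p of 0.0156 for H2-Aa and Cd74 and 0.00781, the smallest it can give, for the other 6 genes. Within tissues, TMM or size factors or an adjusted p of 0.05 moved no count past 1.5 times, and TMM and size factors each ended 1 of the 25 calls, Ciita in liver (-0.46 with either). A log2 fold change above 1 left 3 of 25 calls (muscle 1, brown adipose 1, lung 1, and 0 in liver, heart and kidney). An assumed coefficient of variation between pools of 0.2 left 2 (brown adipose 1, lung 1, and 0 in muscle, liver, heart and kidney) and 0.4 left 0 in all. TMM or size factors changed the sign of H2-Aa and Cd74 in white adipose (Cd74 -0.10 and -0.11) and of H2-DMb1 in heart (0.04 and 0.05), none of them called. TMM factors kept 6 of 8 tissues in rank, brown adipose and heart trading places, and length scaling 8. They moved the median of all genes by over 0.1 in liver, from -0.13 to 0.00, and size factors also in white adipose, from 0.07 to -0.05. H2-DMa, H2-DMb1 and Ciita held 40 to 111 counts a library in muscle, heart and liver, which widens their counting intervals.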
